A study of Mus musculus with 12 samples.

Results

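Livers of mice that lack the mTERT gene were compared with livers of their wild-type littermates, in 6 of the 12 arrays of a study of the telomerase genes in mouse liver. The mTERT knockout (KO) group held 3 first-generation (G1) KO livers and the wild-type (WT) group held 3 WT livers. All came from male C57BL/6J mice with no treatment. Both groups were formed from the sample titles and genotypes, and the number in a title was read as the littermate set, since the study used 3 sets in which WT and KO mice were littermates and matched for age. The remaining 6 arrays, 3 mTR KO (G1) and 3 mTR WT livers of the same strain and sex, were used for the estimate of the spread and as a second line for comparison. The age, the exons that the mTERT allele lacks, the strain it was made in and the number of backcrosses are not given in the sources used here, and each array is 1 liver.

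Telomerase adds repeats to the ends of chromosomes. Its catalytic part is the reverse transcriptase TERT, encoded by Tert, and its template is the RNA encoded by Terc, named mTR in mice. Mice of the first generation without the enzyme still carry the telomere reserve inherited from their parents, and hepatocytes of an adult liver divide rarely. The series set the deletion of the protein against that of the RNA and named the DNA damage response as a point of interest.

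The deposited values were taken as log2 intensities, and every difference below is KO minus WT on this log2 scale, where 1 is a doubling. A level of 4.337 was taken as background, from 1027 olfactory receptor genes that liver is not expected to use. The hepatocyte marker list averaged between 12.47 and 12.55 on the 6 mTERT arrays, so that the tissue matched its label. Other features separated the arrays within groups. The 2 mTERT arrays of set 1 carried more small nucleolar RNA signal, with list means of 6.58 in KO and 6.67 in WT against 5.18 to 5.31 on the other mTERT arrays. Genes of the exocrine pancreas averaged 9.80, 3.85 and 4.06 in the KO livers of sets 1, 2 and 3 and 7.40, 8.94 and 3.92 in the WT livers, so that pancreas signal was high in 3 of the 6 samples. Skeletal muscle genes averaged 4.38, 3.93 and 3.98 in the KO livers and 6.53, 3.96 and 6.30 in the WT livers. Muscle signal was thus above background in 2 WT livers and at about the background level in the KO group. Acute phase genes averaged 9.88 in the WT liver of set 1 and 8.61 to 8.95 on the other mTERT arrays, and interferon response genes averaged 7.13 in the WT liver of set 3 and 6.03 to 6.43 on the others. In pieces of whole tissue, fewer cells of a type and less RNA per cell cannot be told apart.

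**Figure D1:**
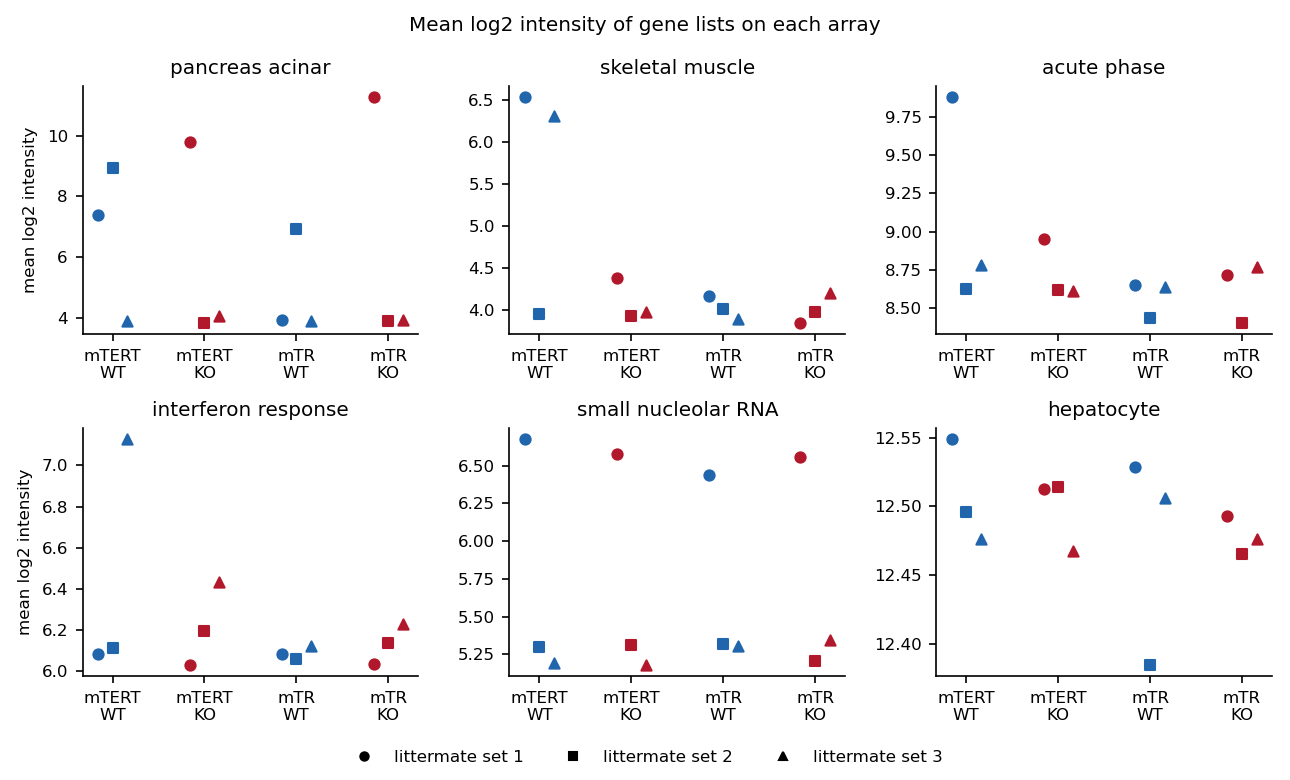
Mean log2 intensity of 6 gene lists on each of the 12 arrays; blue points are WT livers, red points KO livers, and the marker gives the littermate set. Muscle genes stood at 6.53 and 6.30 in 2 mTERT WT livers, pancreas genes were high on 3 mTERT arrays, and small nucleolar RNA genes were high on every set 1 array.

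No single gene passed the test of mTERT KO against WT across the whole array. Of 20197 probes tested with limma, 0 (0%) had an adjusted p under 0.05 and the smallest adjusted p was 1.00. At an unadjusted p under 0.05 stood 283 probes (1.4%), of which 150 were higher and 133 lower in KO. Same-numbered KO and WT livers deviated together from their group means in sets 1 and 3 (correlations 0.692 and 0.623) and little in set 2 (0.135). A fit with the littermate set as a block gave 1037 probes (5.13%) at an unadjusted p under 0.05, with 605 higher and 432 lower. With that block 0 probes (0%) had an adjusted p under 0.05 either, and the smallest adjusted p was 0.0565, for Cyp4a31. The differences reported below are therefore measurements, many of them given with their spread, and none is a called change. Every statement of higher or lower refers to the measured means.

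The precision of 3 against 3 livers set what could have been seen. The median standard error (SE) of a difference was 0.14 without the block and 0.0997 with it, and for 96.6% of the probes the 95% confidence interval lay within a doubling and its reverse. Differences past 1 on the log2 scale were found for 49 probes, 2 higher and 47 lower in KO. The 2 higher ones were Cyp4a14 and Cyp4a31, while 16 of the 47 lower ones belonged to the muscle list, 5 to the pancreas list and 26 to neither. The 26 were sorted by list membership alone. Some of them varied over sets 1, 2 and 3 as those lists did, such as Fabp3 (-2.51, -0.00146 and -3.51) and Try10 (1.63, -4.84 and 0.21). Others did not, such as Bcl6 (-2.44, -2.11 and 0.08). Over 19938 named genes, 10114 (50.7%) were higher on average in KO. In all 3 sets 2429 genes (12.2%) were higher and 2179 (10.9%) lower, and the groups did not overlap for 481 genes (2.41%) with KO above WT and for 522 (2.62%) with KO below WT. These shares are the background against which the members of each list are read.

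The Tert probe was lower in the KO livers, as its label states. It read 3.95, 4.07 and 4.15 in the KO livers of sets 1, 2 and 3, all below the background level, and 4.13, 4.78 and 4.83 in the WT livers. The WT liver of set 1 was also below background, so that the groups overlapped, and the set 1 difference was -0.18 against -0.71 and -0.68 in sets 2 and 3. The mean difference was -0.52 (SE 0.183, 95% confidence interval -0.93 to -0.12; limma adjusted p 1.00). Whether the probe lies in the deleted exons is not given in the sources used here. In the mTR line the same probe read 4.58 to 5.04 in all 6 livers, so the mTERT KO group stood apart from that line too. Terc, the RNA partner, read 4.48, 4.17 and 4.23 in KO livers against 4.15, 4.08 and 4.10 in WT livers. These levels lay at the background or below it apart from the KO liver of set 1, and the difference of 0.18 had an interval from -0.09 to 0.46. In the mTR line, where Terc is the deleted gene, the probe read 4.33, 4.18 and 3.87 in KO livers. The WT livers of that line read 4.12, 4.24 and 4.22, a difference of -0.06 (SE 0.125). The probe thus did not separate livers with and without its gene, and the 0.18 is not read as a change in Terc RNA.

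**Figure D2:**
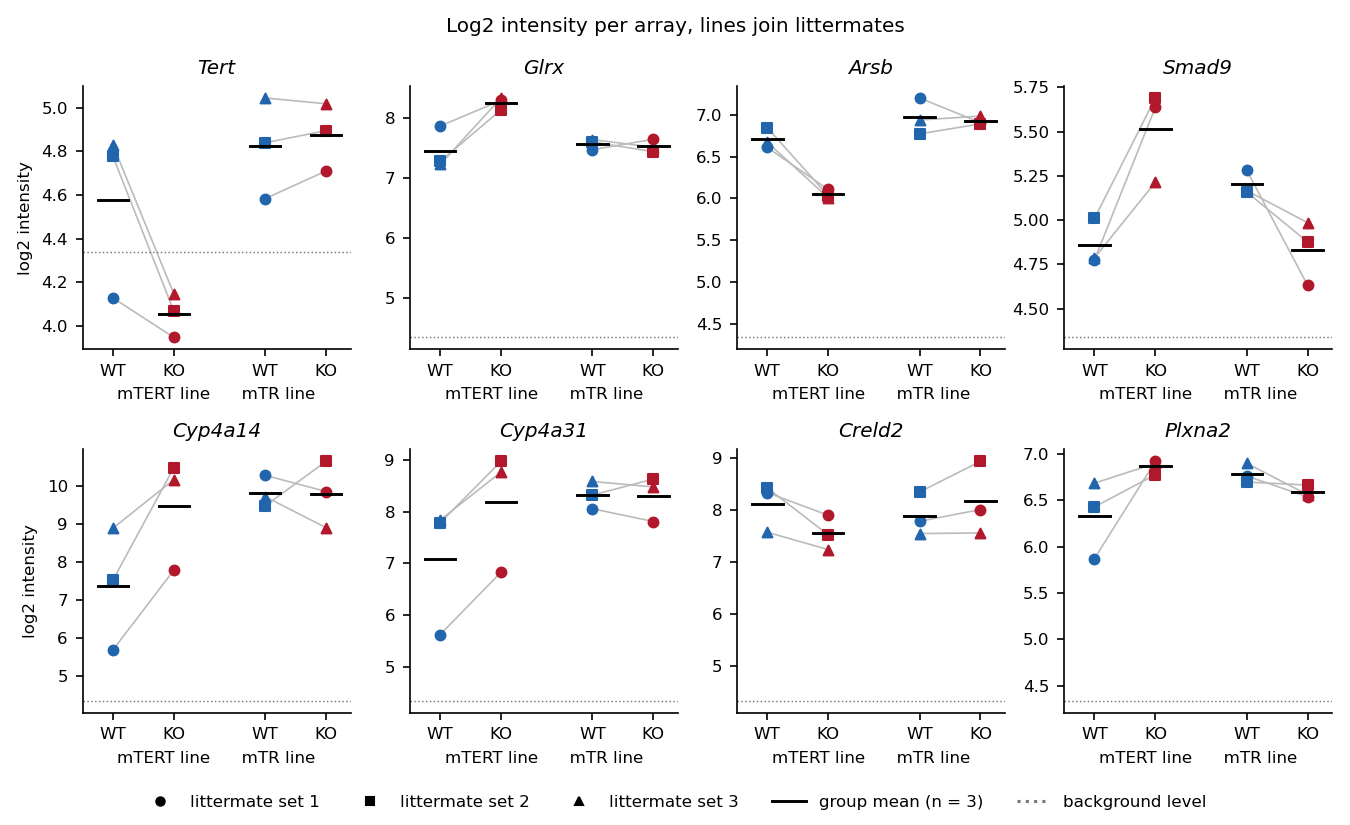
Log2 intensity of 8 genes on each array; lines join littermates, bars are group means of 3 livers, and the dotted line is the background level. The KO livers of the mTERT line stood above their WT littermates for Glrx, Smad9, Cyp4a14, Cyp4a31 and Plxna2 and below them for Tert, Arsb and Creld2 in each of the 3 sets.

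A gene on the chromosome of Tert was among those with the smallest p-values and a higher level in KO. Glrx encodes glutaredoxin, which uses glutathione to release proteins from mixed disulfides. Its probe read 8.29, 8.13 and 8.33 in the KO livers and 7.86, 7.27 and 7.22 in the WT livers of sets 1, 2 and 3. The KO arrays lay above the WT arrays with no overlap, and also above the 6 mTR line arrays, which read 7.44 to 7.64. The mean difference was 0.80 (SE 0.154, interval 0.46 to 1.14; limma adjusted p 1.00), with set differences of 0.43, 0.86 and 1.11. Without the WT liver of set 1 the difference was 1.00 with an adjusted p of 0.0494, the one gene called in that setting.

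Arsb, the lysosomal enzyme arylsulfatase B that degrades dermatan sulfate, was the counterpart on the low side. It read 6.11, 6.03 and 6.01 in KO livers against 6.61, 6.85 and 6.67 in WT livers, and 6.77 to 7.20 in the mTR line. The 3 KO arrays were the lowest of all 12. The difference was -0.66 (SE 0.115, interval -0.91 to -0.41), with a smaller value of -0.33 at the second Arsb probe. Of the 32 lysosomal enzyme genes measured, 24 were higher and 8 lower on average, with a median of 0.04, so that Arsb stood apart from its own list. Leaving out any 1 of the 6 livers kept the difference of the first probe between -0.71 and -0.59.

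Glrx and Arsb lie on chromosome 13, 24 and 77 measured genes away from Tert in the order of RefSeq genes, on the same side. Some of the genes between Tert and Arsb are described here, and the counts below include others. Erap1, an aminopeptidase that trims peptides for class I presentation, lies 20 genes away and read 8.25, 8.41 and 8.47 in KO against 8.38, 8.74 and 9.07 in WT liver, a difference of -0.35 (SE 0.159) with overlapping groups. Cast, the calpain inhibitor calpastatin, is its neighbour and differed by -0.36 (SE 0.249), lower in 3 of 3 sets. Tppp, a tubulin-binding protein gene 9 genes from Tert, was at or near background and differed by 0.45. Of the 50 measured genes nearest to Tert, 25 on each side, 23 were higher and 27 lower in KO. In these 50 the groups did not overlap for 3 higher and 2 lower genes, which is 10% against 5.03% of all named genes. The median absolute difference was 0.0741 in these 50, 0.0734 among all 731 measured genes of chromosome 13 but Tert, and 0.0662 among genes of the other chromosomes. The 25 genes on the side of Glrx had a median of 0.0905 with 16% not overlapping, and the 25 on the other side had 0.0713 with 4%. Glrx, already picked by its p-value, is itself among the genes without overlap in the 10% and the 16%. These shares are thus not independent of it. In the mTR line the side of Glrx had a median of 0.0549.

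In the mTR line Glrx differed by -0.04, Arsb by -0.04, Erap1 by -0.03 and Cast by -0.11, while Tppp differed by -0.41. Ckmt2, a mitochondrial creatine kinase of muscle 59 genes from Tert, was named after its value was seen, differed by -1.35, and the muscle list was high in 2 of the 3 WT livers as given above. The part of that muscle signal in the Ckmt2 value was not tested.

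**Figure D3:**
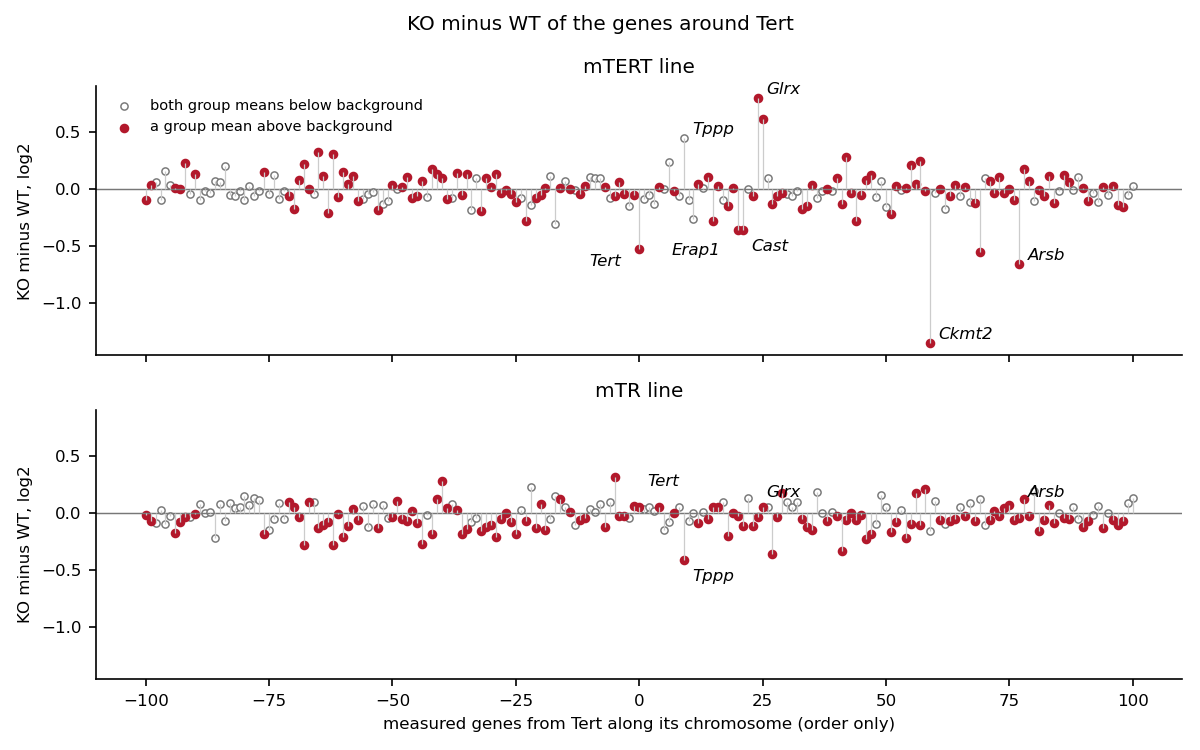
Difference of KO and WT livers (log2) for measured genes up to 100 positions on either side of Tert, in the mTERT line (upper panel) and the mTR line (lower panel); open points are genes with both group means below background. In the mTERT line Glrx at 0.80 and Arsb at -0.66 lie away from 0 on the right side of Tert, and both differed by -0.04 in the mTR line.

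The largest positive differences were measured in the Cyp4a genes, which encode the cytochromes that start fatty acid omega-oxidation. They lie in 1 cluster on chromosome 4, share long stretches of sequence, and are known as targets of the fatty acid receptor PPARA in rodent liver. Cyp4a14 read 7.79, 10.49 and 10.17 in KO livers against 5.68, 7.52 and 8.89 in WT livers. Each KO liver was above its littermate, by 2.10, 2.97 and 1.28, although the levels of the groups overlapped. The mean difference was 2.12 (SE 0.819, interval 0.32 to 3.91), the largest positive value among all named genes. Without the WT liver of set 1 it was 1.28, and without the KO liver of set 1 it was 2.97.

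Cyp4a31 read 6.83, 8.98 and 8.77 in KO livers against 5.62, 7.79 and 7.84 in WT livers, with set differences of 1.21, 1.19 and 0.93. The mean was 1.11 (SE 0.621, interval -0.25 to 2.47), and the interval in the fit with the littermate block was 0.85 to 1.37. Both livers of set 1 were low. Without the WT liver of set 1 the difference was 0.38, and without the KO liver of set 1 it was 1.79. Cyp4a10 read 7.83, 9.14 and 8.46 in KO livers against 6.74, 8.09 and 7.80 in WT livers, a difference of 0.93 (SE 0.419) that was positive in 3 of 3 sets and was 0.53 without the WT liver of set 1. The Cyp4a12 members were not higher. Cyp4a12a was lower in 3 of 3 sets by 0.26 on average (difference -0.26, SE 0.168) and Cyp4a12b differed by -0.10 (SE 0.232). Whether one Cyp4a transcript reached the probes of another was not tested, so the 3 higher members are not taken as independent measurements. Of the 5 measured members, 3 were higher and 1 lower in all 3 sets. The 3 higher ones stood at lower levels in mTERT WT than in the other groups: Cyp4a14 averaged 7.37 in mTERT WT against 9.48 in mTERT KO, 9.81 in mTR KO and 9.83 in mTR WT.

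Other genes under PPARA were measured through a list of 40 genes. In KO 32 of the 40 were higher on average, against 50.7% of all genes, 12 were higher in 3 of 3 sets (12.2% of all genes) and 1 was lower in 3 of 3. The median difference was small at 0.08, with set medians of 0.18, 0.07 and -0.01, so that it was near 0 in set 3. Without the WT liver of set 1 the list median was 0.02. Groups that did not overlap were found for 3 of the 40 members, each with KO above WT (2.41% of all genes). Acot1, a cytosolic acyl-CoA thioesterase, read 5.70, 6.11 and 5.57 in KO livers against 4.67, 5.41 and 5.26 in WT livers (difference 0.68, SE 0.215). Vnn1, a pantetheinase, read 7.83, 7.92 and 7.39 against 6.75, 7.27 and 7.24 (difference 0.62, SE 0.323). Acaa1b, a peroxisomal thiolase, read 9.74, 9.83 and 9.76 against 9.35, 9.50 and 9.43 (difference 0.35, SE 0.129). Acot1 and Acaa1b were at their lowest over all 12 arrays in the 3 mTERT WT livers. The receptor Ppara itself differed by -0.03.

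Endoplasmic reticulum (ER) stress genes were more often lower than higher in KO, with 18 of 27 measured genes lower on average, most of them chaperones or their partners. When unfolded proteins build up in the ER, the factors ATF6 and XBP1 raise chaperone genes through the ER stress element (ERSE), CCAAT and CCACG set 9 bases apart, while ATF4 raises amino acid synthesis and stress genes through another site. Of 27 measured genes of both arms, 13 were lower in 3 of 3 sets (10.9% of all genes) and 4 were higher in 3 of 3 (12.2% of all genes). The median was -0.11 with set medians of -0.17, -0.11 and -0.04, and 9 of the 27 had an unadjusted p under 0.05 with the block, against 5.13% of all probes. Without the block 0 of the 27 did, against 1.4% of all probes. Leaving out 1 liver moved the list median between -0.17 and -0.06. Hepatocytes secrete much protein, and the chaperones are strongly used in them.

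Promoters were searched for letters that the chaperone genes share. The bases 250 to 1 before the start were taken from RefSeq (GRCm38.p6), and 25 of the 27 genes had an entry. The ERSE, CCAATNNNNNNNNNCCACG searched on both strands, was found in 8 of these 25 and in 37 of 32851 promoters (0.113%). The following promoters are printed on the strand of the gene, with ERSE matches in capitals, because Creld2 differed most, Hspa5 encodes the main chaperone BiP, and Hsp90b1 has 2 matches. They lie at chr15:88819396-88819645 on the plus strand for Creld2, chr2:34771840-34772089 on the plus strand for Hspa5, and chr10:86705445-86705694 on the minus strand for Hsp90b1.
Creld2: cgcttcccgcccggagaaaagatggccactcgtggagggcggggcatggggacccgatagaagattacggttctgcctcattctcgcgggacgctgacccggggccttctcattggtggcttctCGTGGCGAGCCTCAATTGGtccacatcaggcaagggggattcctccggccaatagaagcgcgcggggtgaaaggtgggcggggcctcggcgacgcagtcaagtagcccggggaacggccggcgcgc
Hspa5: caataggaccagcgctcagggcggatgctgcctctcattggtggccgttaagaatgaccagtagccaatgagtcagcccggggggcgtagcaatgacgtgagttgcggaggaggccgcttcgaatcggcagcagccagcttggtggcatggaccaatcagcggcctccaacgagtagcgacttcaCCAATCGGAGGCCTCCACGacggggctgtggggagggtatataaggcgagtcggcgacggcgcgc
Hsp90b1: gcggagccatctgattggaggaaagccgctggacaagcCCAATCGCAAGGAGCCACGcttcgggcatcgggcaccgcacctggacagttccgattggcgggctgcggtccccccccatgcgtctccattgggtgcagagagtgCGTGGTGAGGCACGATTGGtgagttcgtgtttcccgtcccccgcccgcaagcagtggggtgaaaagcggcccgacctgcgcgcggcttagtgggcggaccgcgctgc
In Creld2 the match reads on the strand opposite to the gene, from 126 to 108 bases before the start, and in Hspa5 on the strand of the gene, from 65 to 47 bases before it. The matches of all 8 genes, written from CCAAT to CCACG with the fixed letters in capitals, were these.
Calr: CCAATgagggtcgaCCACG
Canx: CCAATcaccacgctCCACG
Creld2: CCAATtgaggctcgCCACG
Dnajc3: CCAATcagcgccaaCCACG
Hsp90b1: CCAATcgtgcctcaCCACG
Hsp90b1, other match: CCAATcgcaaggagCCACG
Hspa5: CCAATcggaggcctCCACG
Pdia6: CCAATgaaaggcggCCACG
Syvn1: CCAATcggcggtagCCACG
A match is a run of letters and shows no binding. The list was chosen as genes of the ER stress response, so the share of its promoters with an ERSE is not an independent result.

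Each of these 8 genes was lower on average in KO, and 7 of the 8 were lower in 3 of 3 sets, with a median of -0.21. They are part of the 27 list genes, of which 18 were lower on average. Outside the list 12 measured genes carried the same letters, of which 6 were higher and 6 lower, with 0 lower in 3 of 3 sets and a median of 0.01. Outside the list, genes with these letters were thus as often higher as lower. Creld2, an ER protein that is induced with the chaperones, read 7.91, 7.53 and 7.25 in KO livers against 8.34, 8.43 and 7.58 in WT livers. Each KO liver was below its littermate, but the groups overlapped, and the difference was -0.56 (SE 0.348, interval -1.32 to 0.20). Hyou1, a large chaperone of the ER, was lower in 3 of 3 sets, by 0.41 on average (difference -0.41, SE 0.193).

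The next chaperones were chosen for naming after their values had been seen. Sdf2l1, a partner of the BiP cycle, read 7.49, 7.51 and 7.47 in KO livers against 7.96, 7.96 and 7.73 in WT livers (difference -0.40, SE 0.205), with no overlap. Hspa5 read 11.10, 11.25 and 10.75 in the WT livers, and each KO liver was below its littermate by a similar difference (-0.24, -0.25 and -0.19), with a mean of -0.23. Dnajb11, a BiP cofactor, differed by -0.33, the disulfide isomerase gene Pdia6 by -0.23 with no overlap, and Hsp90b1 by -0.20. The promoters of Sdf2l1 and Dnajb11 held no ERSE match in the bases searched, so that lower chaperones were found without it as well. The SE of Hspa5 was 0.177 without the block, above the median of 0.14, and both livers of set 3 were low.

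In the amino acid arm Asns, which makes asparagine, read 6.98, 6.53 and 4.82 in KO livers against 6.62, 5.82 and 4.65 in WT livers, a spread across sets far larger than the difference of 0.41 (SE 0.788). Its set differences in the mTR line were 1.75, 0.26 and 3.81, with a mean of 1.94 (SE 0.788). Trib3, Ddit3 and Atf4 were also named after their values had been seen. Trib3, a pseudokinase induced by ATF4, was above its WT range in every KO liver by 0.30 on average (SE 0.162), and Ddit3, the stress factor CHOP, differed by 0.30 (SE 0.311). Atf4 differed by 0.22 and was higher in 2 of 3 sets. The site TGATGNAA, known as the CARE and searched on both strands, was found in 4 list genes (Asns, Atf3, Chac1 and Herpud1) and in 3.45% of promoters. Measured genes with it outside the list, 487 in number, had a median of -0.01.

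**Figure D4:**
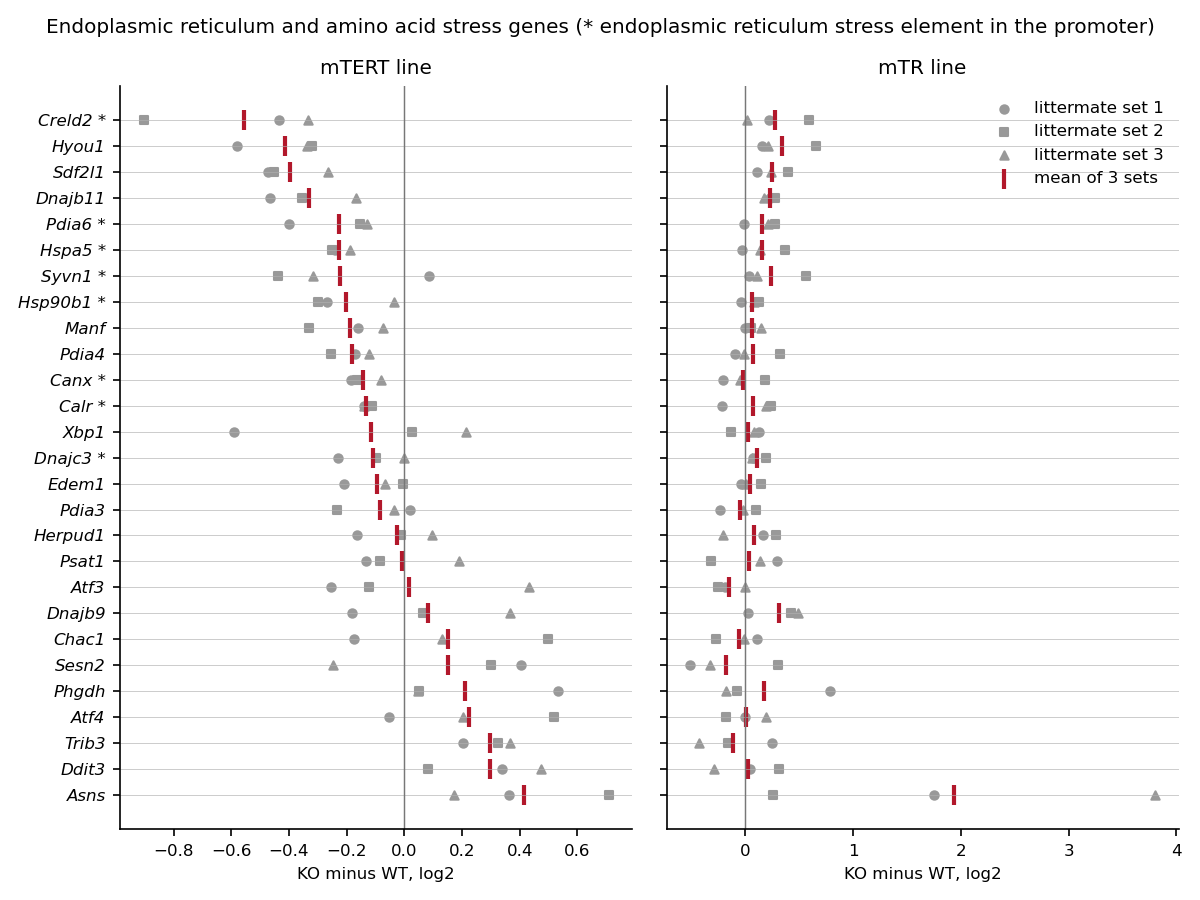
KO minus WT (log2) for 27 ER and amino acid stress genes in each littermate set (grey markers) with the mean of 3 sets (red bar), in the mTERT line (left) and the mTR line (right, on a wider axis); asterisks mark an ERSE in the promoter. In the mTERT line Creld2, Hyou1, Sdf2l1 and Dnajb11 lie below 0 in 3 of 3 sets, and in the mTR line they lie above 0 in 3 of 3 sets.

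Smad9, a receptor-activated SMAD of the bone morphogenetic protein (BMP) pathway, had one of the smallest p-values without the block. It read 5.64, 5.69 and 5.21 in KO livers against 4.78, 5.01 and 4.79 in WT livers, with no overlap. The difference was 0.66 (SE 0.141, interval 0.35 to 0.97). In liver, BMP ligands act on hepatocytes to raise hepcidin, and the Id genes are common targets. Of 27 measured BMP pathway genes, 17 were higher and 10 lower in KO, with 5 higher and 2 lower in 3 of 3 sets and a median of 0.01. The target Id2 differed by -0.39 (SE 0.387) and Id3 by 0.21 (SE 0.434), with opposite signs.

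Further genes were picked by the size of their p-value and by lack of overlap. Plxna2, a semaphorin receptor, read 6.92, 6.78 and 6.90 in KO livers against 5.87, 6.43 and 6.69 in WT livers (difference 0.54, SE 0.168), and without the WT liver of set 1 it was 0.31. P2ry1, a receptor for ADP, read 5.66, 6.27 and 5.71 against 5.28, 5.40 and 5.34 (difference 0.54, SE 0.18). Oaz2, an antizyme that limits polyamines, read 6.58, 6.86 and 6.80 against 6.23, 6.43 and 6.43 (difference 0.38, SE 0.125). The KO arrays were above the WT arrays for all 3 genes.

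Smaller differences of the same kind were measured for Camsap3, which caps microtubule minus ends (0.39, SE 0.124), and for Tbc1d10b, a Rab-regulating protein gene (0.29, SE 0.0917). The mTERT WT arrays were the lowest of all 12 for both of them. Vipr1, the receptor for vasoactive intestinal peptide, differed by 0.38 at one probe and by 0.07 at a second, so that the probes disagree. Chd6, a chromatin remodeller, differed by 0.39 at one probe and 0.15 at the other. Mgat4b, a glycosyltransferase of the Golgi, was higher by 0.41, 0.41 and 0.37 in the 3 sets, with a mean of 0.40.

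Other genes picked in the same way had KO below WT with no overlap. F11, coagulation factor XI, read 8.04, 8.23 and 8.09 in KO livers against 8.36, 8.53 and 8.43 in WT livers (difference -0.32, SE 0.111). Gda, guanine deaminase, read 6.92, 6.65 and 6.54 against 7.22, 7.07 and 7.18 (difference -0.45, SE 0.142). C7, a complement component, was below background in each KO liver and read 4.59, 4.47 and 4.42 in the WT livers (difference -0.35, SE 0.0958). The set differences were -0.32, -0.30 and -0.35 for F11, -0.29, -0.42 and -0.64 for Gda, and -0.52, -0.27 and -0.26 for C7. Each was lower in 3 of 3 sets, and the mTR line differed by 0.09 for F11, -0.02 for Gda and 0.02 for C7.

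Napepld, an enzyme that forms N-acylethanolamines, was below background in KO and differed by -0.36 (SE 0.112). Ces2b, a carboxylesterase, read 5.85, 5.06 and 5.51 in KO livers against 6.58, 5.87 and 5.68 in WT livers (difference -0.57, SE 0.226), lower in 3 of 3 sets. Stat3, which carries interleukin 6 signals to acute phase genes, read 8.31, 8.49 and 8.35 in KO livers against 9.26, 8.54 and 8.90 in WT livers (difference -0.51, SE 0.163). Set 2 differed by -0.05 for Stat3, so that sets 1 and 3 made most of the mean. The same 2 WT livers carried the muscle signal, at list means of 6.53 and 6.30, and the part of that signal in the Stat3 value was not tested.

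Acute phase genes were lower in KO as a group, with 27 of 29 lower on average and 13 of 29 lower in 3 of 3 sets (10.9% of all genes). The list holds the liver's secreted response to inflammation. The median was -0.18, but the set medians of -0.64, -0.02 and -0.12 show that most of it came from set 1. Saa1, serum amyloid A, read 7.03, 5.68 and 5.65 in KO livers against 9.84, 6.13 and 6.41 in WT livers, a difference of -1.34 (SE 0.858). Lcn2, the siderophore binder lipocalin 2, read 6.70, 5.62 and 5.59 against 9.36, 5.62 and 6.55, a difference of -1.21 (SE 0.746). Without the WT liver of set 1 the differences were -0.15 for Saa1 and -0.12 for Lcn2, and the list median was -0.03. Saa3 differed by -0.71 (SE 0.374) with the same liver highest.

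Interferon response genes were lower on average in 28 of 31 cases, yet 2 of the 31 were lower in 3 of 3 sets. The set medians were -0.03, 0.08 and -0.55, and without the WT liver of set 3 the list median was 0.10. In that liver the MHC class II genes averaged 6.78 against 5.55 to 6.16 on the other mTERT arrays, with set medians of 0.32, -0.31 and -1.38. T and NK cell markers averaged 4.26 there against 3.94 to 4.09 elsewhere in the mTERT line, below background on each array. The part of such cells in the interferon values was not tested. Mx2, an interferon-induced antiviral GTPase, read 4.53, 4.42 and 4.53 in KO livers against 4.96, 4.58 and 5.04 in WT livers (difference -0.37). Birc3, a target of NF-kappaB, differed by -0.27 with no overlap. The neutrophil list averaged 3.66 to 3.82 on the 6 mTERT arrays, below background.

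Muscle genes had the largest negative differences of all. All 22 were lower on average, 10 of 22 in 3 of 3 sets, with a median of -1.52 and set medians of -2.24, 0.03 and -2.07. Casq1, a calcium store protein of skeletal muscle, read 3.73, 3.81 and 3.98 in KO livers against 5.63, 4.02 and 5.66 in WT livers (difference -1.26). Ryr1, the calcium release channel of muscle, differed by -0.67 and Eef1a2, a muscle and nerve form of an elongation factor, by -0.70. Casq1 and Ryr1 were below background in the KO livers and in the WT liver of set 2, while Eef1a2 read 5.21 to 5.54 in KO and 5.63 in that WT liver. The heat shock gene Cryab, also abundant in muscle, differed by -0.53 in the same arrays. The 16 measured pancreas genes had set medians of 2.40, -4.96 and 0.17, with no common direction.

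Genes of telomere upkeep and damage signalling address the question of the series. Of 12 telomerase holoenzyme genes, 7 were higher and 5 lower on average, with a median of 0.02. In 3 of 3 sets 1 was higher (8.33%, against 12.2% of all genes) and 4 were lower (33.3%, against 10.9%). The 4 lower ones include the deleted gene Tert itself, and the 1 higher one is Terc, whose probe lay near background as given above. The 14 shelterin and CST genes, which cap telomeres, had a median of 0.03, with 3 higher and 1 lower in 3 of 3 sets. Ctc1 differed by 0.12, Tnks by 0.11 and Stn1 by -0.14, the last with no overlap. The limits of these small values are given by their SE of 0.0988, 0.125 and 0.112.

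Of 22 measured p53 targets, 9 were higher and 13 lower on average, with 4 higher and 2 lower in 3 of 3 sets and a median of -0.02. Fas, a death receptor and p53 target, read 6.14, 6.36 and 6.35 in KO livers against 6.55, 6.53 and 6.76 in WT livers (difference -0.33, SE 0.115), and the 3 KO livers were the lowest of all 12 arrays. Among 25 DNA damage response genes the median was 0.03, with 4 higher and 3 lower in 3 of 3 sets. H2ax, whose histone is phosphorylated at DNA breaks, read 5.60, 5.44 and 5.52 in KO livers against 5.29, 4.84 and 5.29 in WT livers (difference 0.38, SE 0.143), with no overlap. RNA level says nothing of that phosphorylation.

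Proliferation genes, low in resting liver, had a median of 0.06, with 22 of 31 higher on average and 4 higher and 2 lower in 3 of 3 sets. Tk1, the thymidine kinase of dividing cells, read 6.37, 6.14 and 5.91 in KO livers against 5.51, 5.58 and 5.87 in WT livers (difference 0.49, SE 0.149), and its second probe differed by 0.30. Cdk1, the mitotic kinase, differed by 0.18 (SE 0.104) and Ccnd1, cyclin D1, by -0.21 (SE 0.213). The share of members with 1 direction in 3 of 3 sets was 21.4% higher and 7.14% lower for shelterin and CST genes, 18.2% and 9.09% for p53 targets, 16% and 12% for DNA damage response genes, and 12.9% and 6.45% for proliferation genes, beside 12.2% and 10.9% of all genes.

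Metabolic lists showed small medians. Mitochondrial biogenesis genes had a median of 0.09, with 5 of 15 higher in 3 of 3 sets (12.2% of all genes), among them Polg2, a subunit of the mitochondrial DNA polymerase, at 0.31 (SE 0.14, no overlap) and the mitochondrial transcription factor Tfam at 0.23 (SE 0.198). The respiratory chain list of 45 genes had a median of 0.02. Among 34 redox genes 26 were higher on average (50.7% of all genes) and 7 in 3 of 3 sets (12.2% of all genes). Glrx led them, with Gstm4, a glutathione transferase, at 0.34 (SE 0.177). Lipogenesis genes had a median of 0.07, but a set 2 median of 0.36 against -0.03 and -0.02 in the others. Me1, malic enzyme, differed by 0.35 (SE 0.158).

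Genes of hormone and zonation programmes differed one by one. Irs2, an adaptor of the insulin receptor, read 6.50, 6.14 and 6.25 in KO livers against 5.97, 5.68 and 5.93 in WT livers (difference 0.44, SE 0.203), with no overlap. Igfbp2, a secreted binder of insulin-like growth factors, differed by 0.43 (SE 0.206), higher in 3 of 3 sets. Cish, a feedback inhibitor of growth hormone signals through STAT5, read 4.52, 5.62 and 4.81 in KO livers against 4.16, 4.04 and 4.63 in WT livers, a difference of 0.70 (SE 0.403) carried mostly by set 2 (1.57). Bcl6, a repressor that acts on the same targets, was named after its values were seen and read 5.92, 6.06 and 7.68 in KO against 8.36, 8.17 and 7.60 in WT liver (difference -1.49, SE 0.86). Sets 1 and 2 differed by -2.44 and -2.11 for Bcl6 and set 3 by 0.08.

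The steroid hydroxylase Cyp7b1 differed by -0.43 (SE 0.456) and the steroid enzyme Cyp17a1 by 0.43 (SE 0.435), each in 1 direction in 3 of 3 sets. Single livers carried much of both, since Cyp17a1 was 0.02 without the KO liver of set 2 and Cyp7b1 was 0.066 without the KO liver of set 3. Of 19 Wnt-dependent genes of hepatocytes near the central vein, 5 were higher and 14 lower on average. Lgr5, a receptor that strengthens Wnt signals, differed by 0.42 (SE 0.257), Tbx3, a transcription factor of that zone, by -0.44 (SE 0.377), and Rhbg, an ammonia transporter, by -0.36 (SE 0.288). The list had 3 members higher and 4 lower in 3 of 3 sets (12.2% and 10.9% of all genes). On average 26.3% of the list was higher, against 50.7% of all genes. The list median was -0.06, with set medians of 0.01, -0.07 and -0.08. Leaving out 1 liver moved it between -0.13 and -0.05.

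Endothelial markers were higher in all 20 measured cases on average, against 50.7% of all genes, and 10 of 20 were higher in 3 of 3 sets (12.2% of all genes). The median was 0.12, with set medians of 0.06, 0.30 and 0.07. Flt4, a receptor for lymphatic growth factors that sinusoids also make, read 5.81, 5.81 and 6.06 in KO livers against 5.65, 5.35 and 5.88 in WT livers (difference 0.27, SE 0.18). Oit3 and Gpr182, both markers of sinusoidal endothelium, each differed by 0.21. Left-out livers moved the list median between 0.07 and 0.19. Kupffer cell genes went the other way in 11 of 17 cases, 6 of 17 in 3 of 3 sets, with a median of -0.10, and hepatocyte markers had a median of 0.00172. Ribosomal protein genes were higher in 52 of 71 cases (50.7% of all genes) with a median of 0.06, which ranged from -0.00464 to 0.14 when 1 liver was left out.

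**Figure D5:**
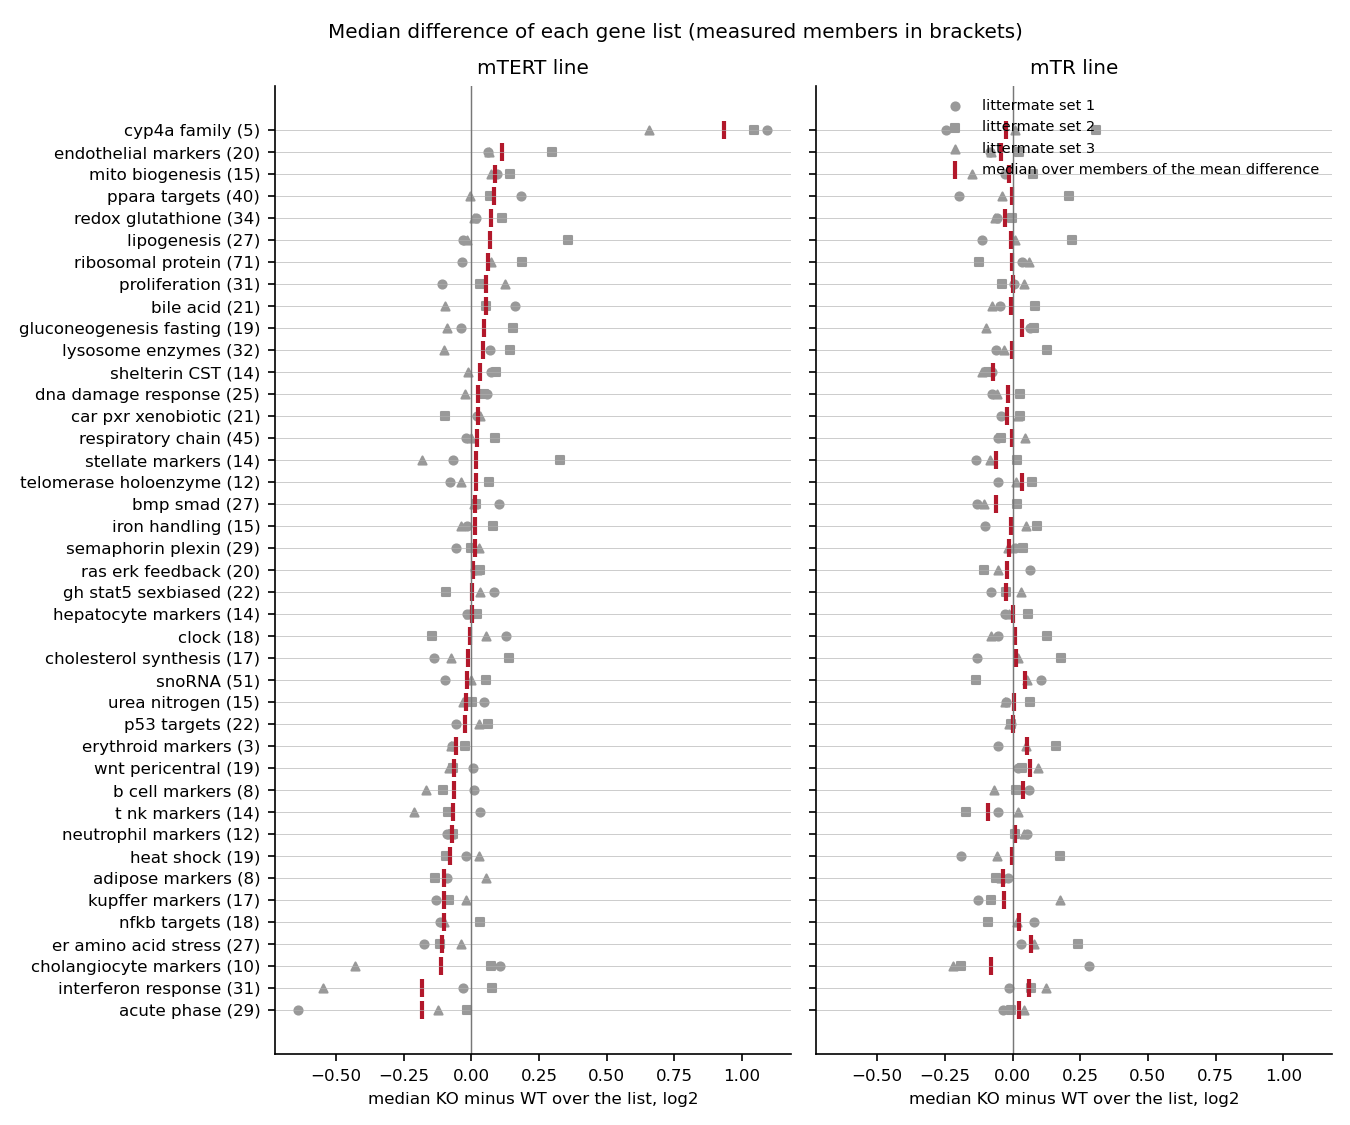
Median KO minus WT (log2) of each gene list, with the number of measured members in brackets, for each littermate set (grey markers) and for the mean difference (red bars), in the mTERT line (left) and mTR line (right); the pancreas, muscle and MHC class II lists are not drawn. Most lists lie within 0.1 of 0 in the mTERT line, the Cyp4a family stands at 0.93 and the acute phase list at -0.18.

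The 3 set differences had little in common over all probes. Their correlation across 20197 probes was -0.24 between sets 1 and 2, 0.18 between sets 1 and 3 and -0.07 between sets 2 and 3, where the probes are not independent and each set is 1 pair of livers. The spread (SD) of the differences over probes was 0.262, 0.315 and 0.245 in sets 1, 2 and 3. A single littermate pair thus gave differences as large as many of the group differences reported here. Leaving out the set 1 arrays of all 4 groups, an alternative chosen after seeing the data, gave a difference of 0.99 for Glrx, -0.74 for Arsb, 2.12 for Cyp4a14, 0.55 for Smad9, -0.62 for Creld2 and -0.70 for Tert. It gave 0.28 for Plxna2 and a median of -0.06 for the acute phase list, both nearer to 0 than with set 1.

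Few mTERT genes stood apart from the mTR line. The contrast of the KO difference in the mTERT line with that in the mTR line, which share no array, had 0 of 20197 probes (0%) with an adjusted p under 0.05 in limma, and 293 probes (1.45%) at an unadjusted p under 0.05. With the littermate block 1264 probes (6.26%) had an unadjusted p under 0.05. In 29 named genes (0.145%) every mTERT KO array lay above the 9 other arrays and in 42 (0.211%) below them. For the mTERT WT group these counts were 45 (0.226%) and 50 (0.251%), so that the WT livers stood apart at least as often as the KO livers. Glrx belonged to the KO-above genes and Arsb and Fas to the KO-below genes. Acot1, Acaa1b, Vipr1, Camsap3, Tbc1d10b and Tk1 belonged to the WT-below genes, and C7, Ryr1 and Eef1a2 to the WT-above genes.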

How the data were processed

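RNA from 12 mouse livers was amplified with random primers, labelled with biotin and hybridised to Affymetrix arrays, per the labels' protocols. The deposited values were taken as log2 intensities, a base inferred from their range of 2.62 to 13.83, since the file gives none. GCOS 1.4, Affymetrix Expression Console and PLIER are named in the submitters' processing notes with no role or order, and the normalization is not given in the sources used here. Array medians lay between 4.37 and 4.43.

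Of 28853 probes, 21789 had 1 gene symbol in the platform annotation, 1621 several and 5443 none, and 21698 of them matched RefSeq (GRCm38.p6), used for names, gene order and promoters. A gene was given by its probe with the highest mean (19938 genes). Probes whose mean reached the 30th percentile of all probe means (3.898) were tested, 20197 in all, in 1 limma fit (version 3.58.1, R 4.3.3) of 4 group means over the 12 arrays, two-sided, with Benjamini-Hochberg adjustment and a threshold of 0.05. The script was tested on simulated data. The number of arrays limits the precision.

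Same-numbered KO and WT livers were taken as pairs, since the series describes sets of littermates and the title gives the number. The correlations of their deviations were 0.692, 0.135 and 0.623 in sets 1, 2 and 3. The KO liver of set 2 correlated more with the WT liver of set 3 (0.416) than with its own littermate. The p-values measure the spread between these livers. Alternatives were the littermate block, other normalizations, filters, priors and weights, the mTERT arrays alone, 1 probe per gene, and left-out livers.

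Genes were named by rule: Tert, Terc and a fixed set; in each direction, the 12 lowest p-values among genes whose groups do not overlap, and the 12 lowest with the block among genes of 1 direction in 3 of 3 sets; up to 3 members of each list; and neighbours of Tert. A gene had to exceed the background, the mean over arrays of the 95th percentile of olfactory receptor genes. The comparison, its genes and the 44 lists were chosen with earlier results of these data known. Not every gene picked by the rule is reported here.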

Additional observations from a re-analysis of the deposited data

Results flagged for a closer look

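For 15 of 77 genes described here every littermate set of the mTERT line differed in one direction and every set of the mTR line in the opposite direction. This held for 758 of all 19938 named genes (3.8%), and the genes described here were chosen for their mTERT values. The value given is the KO minus WT difference in the mTERT line minus that in the mTR line, on the log2 scale, and no gene had an adjusted p under 0.05 for it in limma, with 0 of 20197 probes called. With the littermate block the count was 0 as well, and 1264 probes (6.26%) had an unadjusted p under 0.05.

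Among ER chaperones the value was -0.83 for Creld2 (SE 0.492), -0.75 for Hyou1 (SE 0.273), -0.65 for Sdf2l1 (SE 0.29) and -0.56 for Dnajb11 (SE 0.287). These genes were lower in mTERT KO and higher in mTR KO liver in each set. The largest ratio of value to SE was that of Smad9, at 1.03 (SE 0.199), and Id3 of the same pathway gave 0.36 (SE 0.613).

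Plxna2 gave 0.74 (SE 0.237), P2ry1 0.82 (SE 0.254), Tbc1d10b 0.40 (SE 0.13) and Igfbp2 0.52 (SE 0.292). Cish gave 1.17 (SE 0.571), with set 2 farthest from 0 in both lines, and Flt4 gave 0.43 (SE 0.254). On the low side Rhbg gave -0.47 (SE 0.408) and Ces2b -0.65 (SE 0.32). Ryr1, a muscle gene, gave -0.73 (SE 0.246), and the muscle list averaged 6.53 and 6.30 in 2 of the 3 mTERT WT livers and lay below background in the mTR line. The mTR set differences of Ryr1 were 0.066, 0.0041 and 0.087, at levels below background. Small mTR set differences were counted for other genes too, such as 0.0114 for Creld2 in set 3 and -0.0186 for Igfbp2 in set 1.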

How the results depend on the processing

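The count of called probes, 0 in the fit without the littermate block and 0 with it, was also 0 under quantile normalization, median centring, both other filters, the trend and robust prior, array weights, 1 probe per gene and the mTERT arrays alone. It ranged from 0 to 41 when single livers were left out. Without the WT liver of set 1 the 1 gene called was Glrx, and without the WT liver of set 2 all 41 called probes were lower in KO, 19 of them in the muscle list. The contrast of both lines ranged from 0 to 30 in the same way. With the replicate block and both mTERT livers of set 2 left out, 107 probes were called (51 higher, among which 50 unnamed probes hold identical values, and 56 lower, 20 of them in the muscle list), and 93 for the contrast of both lines. Leaving out all set 1 arrays, chosen after seeing the data, called 1 gene (Dmbt1). The pairing moved unadjusted counts from 283 to 1037 and changed no call. Leaving out 1 liver moved 45 of 76 described genes by more than 1.5 times at least once. Sign changes arose when 1 liver was left out. Cyp4a12b ranged from -0.27 to 0.13 and was 0.00442 without KO 1, Asns ranged from -0.11 (without WT 3) to 1.06 and was -0.02 without KO 1, Id3 ranged from -0.23 (without KO 3) to 0.72 and was -0.11 without WT 2, and Cyp7b1 ranged from -0.90 to 0.066 (without KO 3). Of 1433 values of named genes under alternatives, 1415 kept direction and side of the threshold, as did 629 of 702 list medians within their spread.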
